A study of Homo sapiens with 21 samples.

Results

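The genes described here encode the enzyme families that act on foreign compounds: the cytochromes P450, the epoxide hydrolases and the aldo-keto reductases of phase I, and the glutathione S-transferases, sulfotransferases and UDP-glycosyltransferases of phase II. They were taken by name and biotype, as the protein-coding genes whose symbol begins with CYP, EPHX, AKR, GST (classes A, M, P, T, O, Z and K), SULT or UGT followed by a number, leaving out CYP1A1, CYP1B1 and CYP51A1. The rule used no measured value and gave 122 of the 58735 genes in the count table, which holds 19951 protein-coding genes. RNA was sequenced from cells labelled HepG2, an established line from a human liver tumour, that had been kept for 6 h in serum-free medium with coumarin at 0.001, 0.01, 0.1, 1, 10 or 100 µM, or with none (0 µM). Each dose had 3 libraries, which the design text calls biological replicates, so 21 libraries were compared. No genetic change was made to the line, and all groups shared the serum-free medium. The questions were which routes of coumarin handling these cells transcribe, and whether the enzyme genes change over the doses.

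In phase I, cytochromes P450 add an oxygen atom to a lipophilic compound with electrons from cytochrome P450 oxidoreductase, epoxide hydrolases open reactive epoxides with water, and aldo-keto reductases turn aldehydes and ketones into alcohols. In phase II, glutathione S-transferases, sulfotransferases and UDP-glucuronosyltransferases attach glutathione, sulfate or glucuronic acid, and ATP-driven pumps then export the products. Coumarin, a fragrance compound of plants, is hydroxylated on its benzene ring by CYP2A6 in the human liver and leaves as a glucuronide or sulfate, whereas other P450s form an epoxide that opens to an aldehyde or is taken up by glutathione.

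Total counts per library were 27984517 to 43704155, and the enzyme genes took 0.175% to 0.195% of them. A gene with no read in the shallowest library could still have stood at up to 0.107 CPM (the count scaled by library total), which is 3 counts and covers counting error only. In all 21 pairs of replicates the counts differed beyond sampling noise (chi-square divided by its degrees of freedom, 2.61 to 11.58), so each library was counted once. Whether replicates came from separate cultures rests on the design text, and otherwise the p-values measure only the spread between these samples. The liver label was checked against 8 genes that define hepatocytes. All 8 had at most 9 reads over the 21 libraries, and 3 of them, ALB, SERPINA1 and FGB, had none. The cell line label is therefore in doubt, and the levels below are not to be read as traits of HepG2. This holds for genes at or near 0, such as CYP2A6, the UGT1A and UGT2 genes and GSTA1, and for abundant ones such as GSTP1. In such bulk samples fewer cells of a type and less RNA per cell cannot be told apart.

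Several enzyme genes are near copies of each other, so the reads of one can be counted for another. The clearest case among abundant genes is the AKR1C cluster on chromosome 10, whose enzymes reduce or oxidise steroid hormones and aldehydes. Over the 969 coding bases, AKR1C1 and AKR1C2 differed at 19 positions (98.0% identity), AKR1C1 and AKR1C3 at 83 (91.4%), and AKR1C2 and AKR1C3 at 87 (91.0%). The stretch shown, coding bases 103 to 162 counted from the A of the start codon in the GENCODE 29 transcripts, is one where the genes can be told apart. Capitals mark the 15 positions at which the 3 genes are not all alike.
AKR1C1: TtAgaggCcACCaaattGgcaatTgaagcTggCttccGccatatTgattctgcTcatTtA
AKR1C2: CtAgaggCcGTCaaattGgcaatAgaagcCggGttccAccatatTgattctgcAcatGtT
AKR1C3: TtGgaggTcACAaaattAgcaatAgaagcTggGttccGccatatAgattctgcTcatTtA
Of all 50-base windows in its transcripts, AKR1C1 shared 28.6% with another gene, AKR1C2 shared 38.9% and AKR1C3 shared 4.53%. The levels of AKR1C1 and AKR1C2 are therefore less certain than that of AKR1C3. The same count gave 49.7% for GSTM1 (mostly shared with GSTM2, GSTM4 and GSTM5), 90.9% for GSTT2B (GSTT2), 81.4% for SULT1A3 (SULT1A4 and read-through genes) and 40.9% to 79.3% for the 9 UGT1A genes, which share their last exons. For SULT1A1 it was 14.9%, with SULT1A2 sharing the most windows, and these 2 genes were 96.8% identical over 885 coding bases. The count was 0 for GSTP1, EPHX1, EPHX2, CYP24A1 and GSTO2, and 0.405% for CYP27C1. Overlapping annotated genes add to the doubt for EPHX1 (TMEM63A on the other strand), GSTM3 (GSTM5 on the other strand) and AKR1C2 (AL391427.1 on the other strand). The same holds for CYP27B1 (METTL1 on its own strand) and SULT1A1 (AC020765.5 on its own strand). CYP24A1, CYP27C1, GSTO2, EPHX2 and GSTP1 overlap none.

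Most of the enzyme genes had few or no counted reads. Of the 122 genes, 31 had no read in any library and 40 had 1 to 21 reads in all 21 libraries together. A mean of at least 1 FPKM (fragments per kilobase of gene length, scaled to library size) was reached by 26 genes, and 11 of these reached 10 FPKM. Among all protein-coding genes, 9835 (49.3%) had a mean of at least 1 FPKM. Orders between genes in FPKM rest on the gene lengths given with the counts, 4750 bases for GSTM3 and 1691 for GSTO1. By mean CPM, not divided by length, GSTM3 (153.5) lay above GSTO1 (71.0), the reverse of their order in FPKM. By family, the genes at or above 1 FPKM were 8 of 53 cytochromes P450, 1 of 4 epoxide hydrolases, 6 of 13 aldo-keto reductases, 9 of 17 glutathione S-transferases, 1 of 13 sulfotransferases and 1 of 22 UDP-glycosyltransferases.

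**Figure D1:**
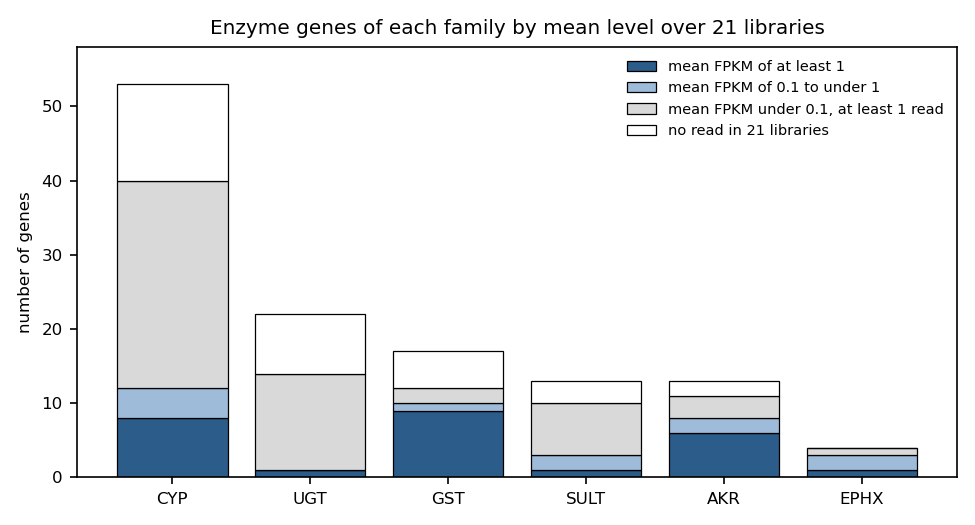
Number of enzyme genes in each family (y axis) split by mean FPKM over the 21 libraries. The dark segment, at least 1 FPKM, holds 8 of 53 CYP and 1 of 22 UGT genes, against 9 of 17 GST and 6 of 13 AKR genes.

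Among the 53 cytochromes P450 read here, those that were transcribed were mostly those of vitamin and sterol metabolism. The naming rule left CYP1A1 and CYP1B1 out of families 1 to 3, so nothing is said of them here. These families hold the main drug-oxidising P450s of the liver. Of their 22 genes read here, 6 had no read and 15 had at most 21 reads in all. Of these 22 genes, those at or above 1 FPKM were CYP2S1 and CYP2R1. CYP2S1, a P450 found mainly outside the liver, averaged 3.15 ± 0.323 FPKM (SD, n = 21). CYP2R1, which makes the main circulating form of vitamin D, averaged 1.46 ± 0.137 FPKM. None of the 12 genes of family 4, the fatty acid hydroxylases, reached that level.

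The other 6 transcribed P450s came from the 19 genes of families 5 and above that were read here. CYP27C1, which desaturates vitamin A, had the highest mean of the 53 P450 genes read here, 4.27 ± 0.278 FPKM (SD, n = 21). Its lowest, median and highest library stood at 3.59, 4.37 and 4.57 FPKM, a range that overlapped that of CYP2S1, 2.66 to 4.06 FPKM. CYP24A1, which inactivates the vitamin D hormone, stood at 1.15, 2.15 and 2.77 FPKM, and CYP20A1, a P450 without a settled substrate, averaged 2.03 ± 0.166 FPKM (SD, n = 21). CYP27B1, which activates vitamin D, CYP39A1, an oxysterol hydroxylase of bile acid synthesis, and CYP26B1, which degrades retinoic acid, averaged 1.36, 1.21 and 1.11 FPKM. The ranges of CYP24A1 and CYP20A1 overlapped, as did those of CYP2R1 and CYP27B1. These ranges pool all doses, and whether such neighbours differ in level was not tested.

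EPHX1, the microsomal epoxide hydrolase that acts on many foreign epoxides, was abundant, with its lowest, median and highest library at 26.5, 28.4 and 30.7 FPKM. The other 3 epoxide hydrolase genes were low. EPHX4, whose substrate is not settled, averaged 0.483 ± 0.0847 FPKM and EPHX2, the soluble hydrolase of fatty acid epoxides, 0.193 ± 0.0463 FPKM (SD, n = 21 each), and EPHX3 had 34 reads in all.

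Among the 3 phase I families read here, aldo-keto reductases held the highest levels. AKR1B1, or aldose reductase, stood at 60.01, 69.3 and 77.4 FPKM in its lowest, median and highest library. AKR1C3, a hydroxysteroid dehydrogenase, stood at 43.6, 50.4 and 56.1 FPKM. The ranges of these 2 genes did not overlap, so their order held in every library. AKR7A2, an aldehyde reductase first known for reducing the dialdehyde of aflatoxin, averaged 34.7 ± 1.59 FPKM, AKR1A1, a broad aldehyde reductase, 29.4 ± 1.26 FPKM, AKR1C1 18.2 ± 1.46 FPKM and AKR1C2 14.4 ± 1.02 FPKM (SD, n = 21 each). AKR1B10, the close relative of AKR1B1 with 75.2% identity over 948 coding bases, and AKR7A3, the partner of AKR7A2, stayed under 1 FPKM, AKR7A3 at 0.246 FPKM.

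Among the glutathione S-transferases, GSTP1 led. This pi-class enzyme is scarce in mature hepatocytes, and here its lowest, median and highest library stood at 225, 241 and 269.8 FPKM, rank 124 of the 19951 protein-coding genes. GSTO1, an omega-class enzyme that reduces thiol adducts and arsenic compounds, averaged 43.1 ± 2.08 FPKM, GSTM3 33.2 ± 1.52 FPKM and GSTK1, the mitochondrial and peroxisomal kappa-class enzyme, 10.3 ± 0.337 FPKM (SD, n = 21 each). The alpha class, which supplies much of the glutathione S-transferase of liver, was nearly absent. Of its 5 genes, 4 had no read in any library, GSTA1 included, and the fifth, GSTA4, averaged 0.465 FPKM.

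Few sulfotransferase and UDP-glycosyltransferase genes reached a mean of 1 FPKM. SULT1A1, the main phenol sulfotransferase, stood at 2.58, 3.05 and 3.40 FPKM in its lowest, median and highest library. These FPKM rest on a given gene length of 8909 bases. By mean CPM, SULT1A1 (26.3) lay above GSTM1 (16.6, with 2512 bases and 6.79 FPKM), the reverse of their order in FPKM. The next sulfotransferase genes, SULT1A2 and SULT1A3, averaged 0.864 and 0.168 FPKM. SULT1E1, the estrogen sulfotransferase, had 56 reads in all and SULT1B1 had 32. The 9 UGT1A genes had 54 reads together over the 21 libraries and the 10 UGT2 genes had 14. UGT8, at 2.87, 3.26 and 3.64 FPKM in its lowest, median and highest library, was the only UDP-glycosyltransferase gene at or above 1 FPKM, and its enzyme attaches galactose to ceramide and not glucuronic acid to foreign compounds.

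**Figure D2:**
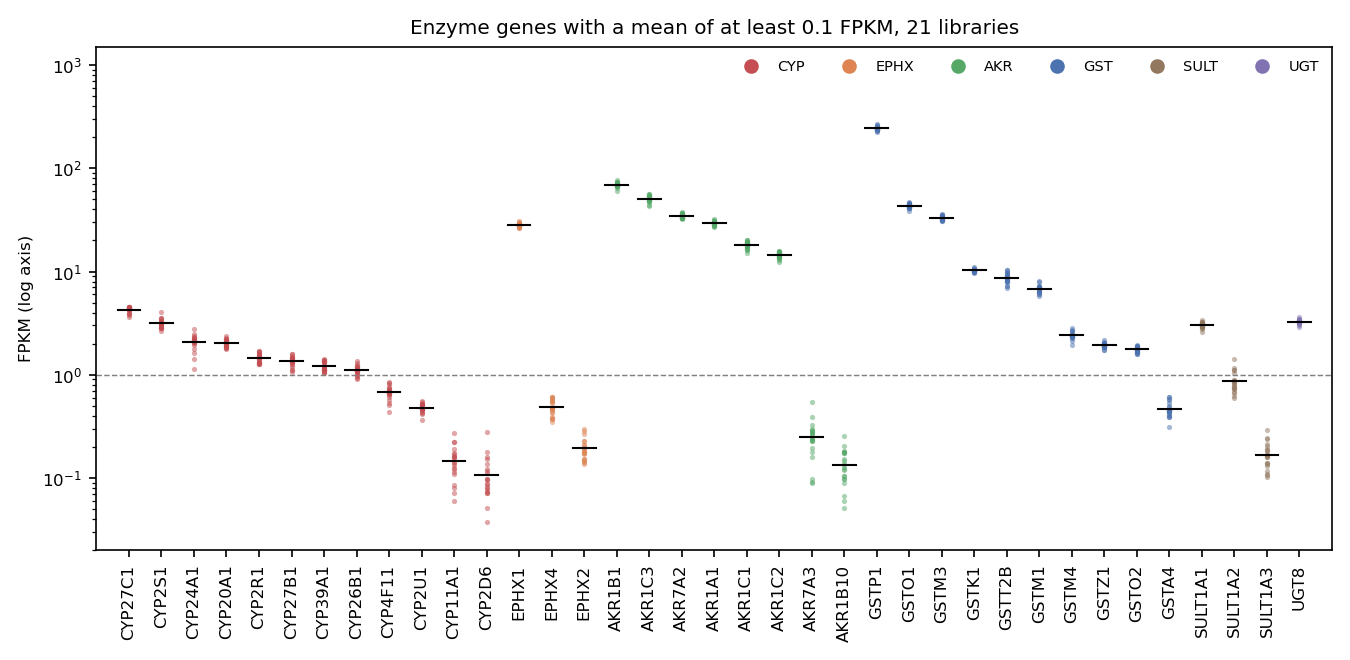
FPKM (log axis) of each enzyme gene with a mean of at least 0.1 FPKM, grouped by family. Points are the 21 libraries, black bars the means, and the dashed line marks 1 FPKM. GSTP1 lies highest, the AKR and GST genes span several orders of magnitude, and UGT8 is the 1 UGT gene shown.

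The routes known for coumarin were represented unevenly. A list of 24 genes for its oxidation, hydrolysis, reduction and conjugation was read against the table, which held 23 of them, and GSTT1 was not analysed here. At the oxidation step, CYP2A6 had 9 reads in 21 libraries, 5 of them in 0.1 µM replicate 1. CYP2E1 had 5 reads, 3 of them in 100 µM replicate 3, CYP1A2, CYP3A4 and CYP2F1 had 1 read each, and CYP2A13 and CYP2B6 had 0. No P450 of the list could be tested, and no order among counts this low can be read.

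Downstream steps differed by route. EPHX1, GSTP1, GSTM1 (6.79 FPKM), SULT1A1, AKR7A2 and AKR1A1 were the 6 genes of the list with at least 1 FPKM. For glucuronidation of the hydroxylated product, UGT1A1, UGT1A6 and UGT1A9 had 6, 8 and 6 reads in all, UGT2B7 had 10 and UGT2B15 had 0. Only 8 of the 23 genes had enough counts to be tested against dose. Of these 8, edgeR called 0 at 100 µM and 0 at 10 µM, where it called 8.58% and 0.321% of all genes tested. DESeq2 also called 0 at both doses. It gave an adjusted p for 29 of 42 tested enzyme genes at 100 µM and for 28 at 10 µM, so some of the 8 may have had none. With 8 genes, 0 calls do not set the list apart from other genes. At an unadjusted p under 0.05 in edgeR there were 0 of the 8 at 100 µM, against 23.1% of all genes, and 3 at 10 µM, GSTP1, AKR7A2 and AKR7A3, against 12% of all genes.

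The promoters of the enzyme genes were searched for the core letters bound by NRF2, the oxidant-sensing activator of many glutathione S-transferase and aldo-keto reductase genes, and by the aryl hydrocarbon receptor. RefSeq promoters (GRCh38.p14) were found for 95 of the 122 genes, and the 250 bases before the first listed start were read on both strands. TGACNNNGC, the NRF2 core, lay in 4 of 22 promoters of enzyme genes with at least 1 FPKM (18.2%), in 10 of 73 of those under 1 FPKM (13.7%) and in 11% of all 27305 promoters. GCGTG, the receptor core, lay in 7 of 22 (31.8%), in 16 of 73 (21.9%) and in 31.9% of all. The match in GSTP1, the most abundant of the 122 transcripts, is shown with the 9 matching bases in capitals. It lies 66 to 58 bases before the start, on the + strand at chr11:67583736-67583765 for the 30 bases printed, and the gene model of the count table begins further upstream, at 67583595.
GSTP1: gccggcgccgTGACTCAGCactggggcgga
Of the tested genes with a promoter, 6 held TGACNNNGC (AKR7A2, CYP4F11, GSTA4, GSTM1, GSTO1 and GSTP1). At 100 µM edgeR called 0 of these 6 (1, CYP4F11, at an unadjusted p under 0.05). It called 2 of the 28 without the letters and 8.58% of all genes tested. DESeq2 called 0 of the 6, though it did not give every tested enzyme gene an adjusted p. For GCGTG, edgeR called 0 of the 10 tested genes with it and 2 of the 24 without. CYP24A1 and EPHX2, also called at 100 µM, had no promoter matched and are in neither group. No difference can be read from these counts. A match is a run of letters and no measure of binding.

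At 100 µM, CYP24A1, CYP27C1 and the glutathione S-transferase gene GSTO2 fell and EPHX2 rose, while the abundant conjugating and reducing genes showed no call. Enough counts for a test were present for 42 of the 122 genes, and 80 were not tested. Of the 42, edgeR's quasi-likelihood test with Benjamini-Hochberg adjustment over 16196 genes (threshold 0.05) called 4 (9.52%), 1 higher and 3 lower, against 8.58% of all genes tested (3.77% higher and 4.82% lower). The share of enzyme genes called was thus close to that of all genes. The median log2 fold change was -0.02 and the median absolute one 0.17, against 0.00 and 0.11 over all genes tested. At an unadjusted p under 0.05 there were 10 of 42 enzyme genes and 3735 of 16196 genes. The 42 are the genes that passed a filter on low counts and not all 122, and 16 of them were under 1 FPKM, with standard errors up to 0.65.

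CYP24A1 (ENSG00000019186, chromosome 20 from 54153449 to 54173973, GRCh38, reverse strand) showed the most stable fall. It had 4.45, 5.51 and 6.25 CPM (scaled by TMM, edgeR's library scaling) in the 100 µM libraries, against 8.42, 6.86 and 8.42 CPM in the 0 µM libraries. All 3 libraries at 100 µM lay below all 3 at 0 µM and below the other 15 libraries. The log2 fold change was -0.55 (SE 0.11, edgeR adjusted p = 0.00122). The fall was also called against 10 µM, where the libraries had 7.89, 8.85 and 7.88 CPM (100 µM over 10 µM, log2 fold change -0.59, SE 0.11, edgeR adjusted p = 0.000967). Both calls were kept in all 15 alternatives run for each. Below 100 µM the level did not follow the dose: the group means ran from 7.90 CPM at 0 µM to 9.62 CPM at 0.1 µM and 8.21 CPM at 10 µM, with no dose called against 0 µM.

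CYP27C1 (ENSG00000186684, chromosome 2 from 127184120 to 127220078, reverse strand) had 15.7, 16.9 and 16.8 CPM at 100 µM, against 19.0, 20.1 and 19.3 CPM at 0 µM. Its 100 µM libraries too were the lowest 3 of all 21. The difference was small beside that of CYP24A1, with a log2 fold change of -0.24 (SE 0.06, edgeR adjusted p = 0.0146). The call ended without 0 µM replicate 2 or 100 µM replicate 1 (adjusted p up to 0.0915). Against 10 µM, where 1 library stood at 17.0 CPM, CYP27C1 was not called (edgeR adjusted p = 0.108).

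GSTO2 (ENSG00000065621, chromosome 10 from 104268873 to 104304945, forward strand), an omega-class enzyme that reduces oxidised vitamin C, had 15.4, 15.5 and 17.0 CPM at 100 µM, against 18.1, 18.9 and 18.2 CPM at 0 µM. These groups did not overlap, but the 10 µM libraries, at 16.4, 16.2 and 16.8 CPM, and the 0.001 µM libraries, at 16.1, 15.8 and 17.6 CPM, also lay below 0 µM. The log2 fold change at 100 µM was -0.21 (SE 0.06, edgeR adjusted p = 0.0344). It was called in 9 of 15 alternatives and lost, among others, without any 1 of 0 µM replicates 1 and 2 and 100 µM replicates 1 and 2 (adjusted p up to 0.148). Its neighbour GSTO1, the abundant gene of the class, had 69.9, 67.8 and 69.8 CPM at 100 µM, against 73.4, 63.5 and 69.3 CPM at 0 µM, overlapping groups (log2 fold change 0.01, SE 0.05).

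EPHX2 (ENSG00000120915, chromosome 8 from 27490779 to 27545564, forward strand) was the 1 enzyme gene called higher, on few reads. It had 38, 41 and 34 reads (1.25, 1.17 and 0.989 CPM) at 100 µM, against 24, 18 and 21 reads (0.661, 0.630 and 0.618 CPM) at 0 µM. The groups did not overlap, and 10 µM replicate 3, at 1.30 CPM, lay above all of the 100 µM libraries. The log2 fold change was 0.83 (SE 0.25, edgeR adjusted p = 0.0354). Over the 12 alternatives that gave an adjusted p, the log2 fold change stayed at 0.76 to 0.92, but the call was kept in 6 of them. The call was lost with no filter on low counts and when any 1 of the 0 µM libraries or 100 µM replicates 1 or 2 was left out (adjusted p up to 0.132). DESeq2 gave EPHX2 no adjusted p, and limma did not test it. The microsomal gene EPHX1 had 69.0, 67.7 and 73.2 CPM at 100 µM, against 69.1, 65.3 and 68.8 CPM at 0 µM, with a log2 fold change of 0.05 (SE 0.05, edgeR adjusted p = 0.598).

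**Figure D3:**
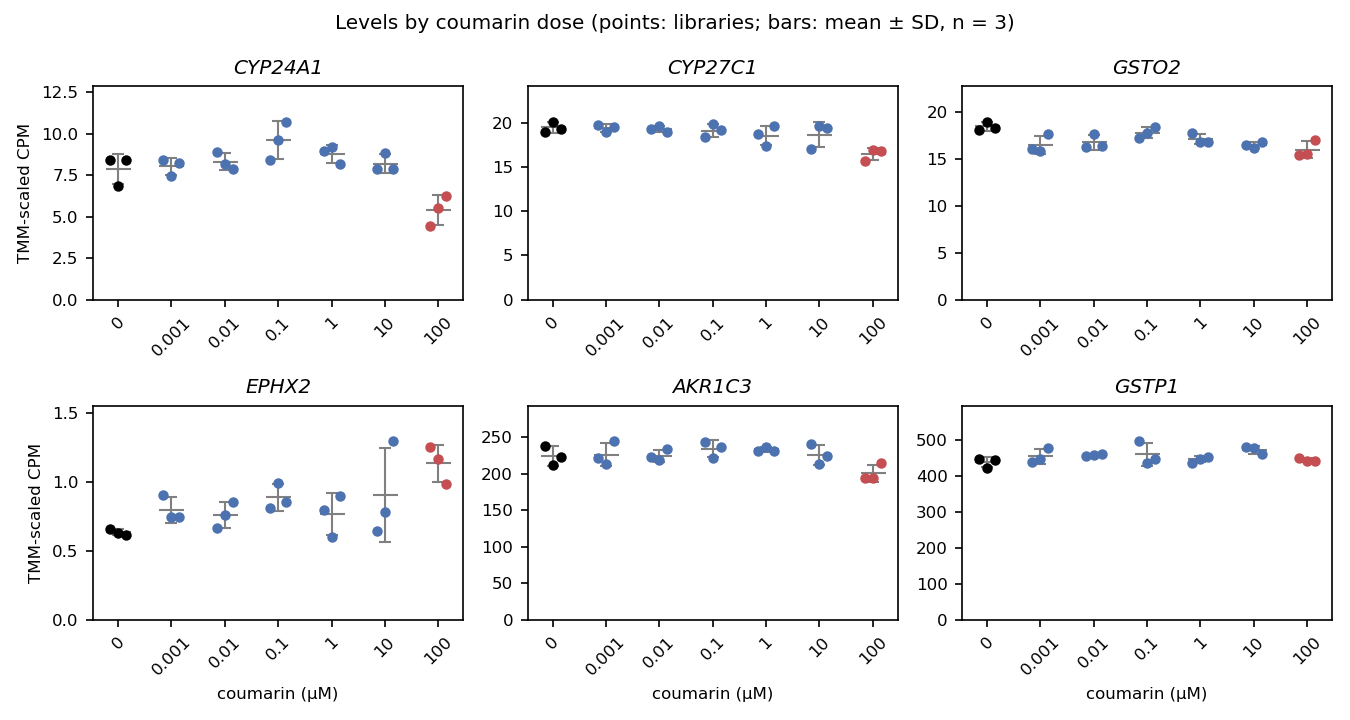
TMM-scaled CPM (y axes, from 0) against coumarin dose (x axis, µM, categories) for the 4 genes called at 100 µM and for AKR1C3 and GSTP1, which were not called. Points are libraries and bars the mean ± SD of 3. CYP24A1 and CYP27C1 are lowest at 100 µM, at 4.45 to 6.25 and 15.7 to 16.9 CPM, and the EPHX2 libraries at 10 µM span 0.646 to 1.30 CPM.

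The abundant enzyme genes were measured tightly, and most of their values at 100 µM and 0 µM overlapped. GSTP1 had 450.6, 441 and 442 CPM at 100 µM, against 447, 422 and 444 CPM at 0 µM (log2 fold change 0.02, SE 0.04, edgeR adjusted p = 0.802). AKR1C3 had 195, 194 and 214 CPM at 100 µM, against 238, 211 and 222 CPM at 0 µM. The highest 100 µM library of AKR1C3 lay above the lowest 0 µM library, and the difference did not pass the threshold (log2 fold change -0.16, SE 0.05, edgeR adjusted p = 0.0567). It passed with DESeq2, without the filter on low counts, with only the 6 libraries compared, with the replicate number as a block, and without 0 µM replicate 2 or 100 µM replicate 3. AKR1C2 gave -0.15 (SE 0.06, adjusted p = 0.129) and AKR1C1 -0.07 (SE 0.08, adjusted p = 0.70), and reads shared between them bear on both values. AKR1C2 passed with no filter on low counts and with the replicate number as a block. Over the 26 genes with at least 1 FPKM, log2 fold changes at 100 µM ran from -0.55 to 0.22 with standard errors of 0.040 to 0.13, and 3 of the 26 were called.

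The largest fold changes stood on few reads. CYP26A1, which degrades retinoic acid, had 3, 1 and 4 reads at 100 µM, against 5, 10 and 15 reads at 0 µM (log2 fold change -1.88, SE 0.65, edgeR adjusted p = 0.0643). CYP2D6, a drug-oxidising P450 of the liver, had 13, 8 and 23 reads at 100 µM, against 7, 8 and 3 reads at 0 µM (log2 fold change 1.25, SE 0.46, edgeR adjusted p = 0.082). Neither passed the threshold, though CYP26A1 passed without 0 µM replicate 1 and CYP2D6 without 100 µM replicate 2, and each shares sequence with another gene, CYP26A1 with AL358613.3 (23.3% of windows) and CYP2D6 with the pseudogene CYP2D7 (34.4%). AKR1B10 (-0.81, SE 0.49), AKR7A3 (-0.71, SE 0.38) and CYP11A1 (0.63, SE 0.33), which makes pregnenolone in steroid-forming tissue, were likewise not called. Over the 16 tested genes under 1 FPKM, standard errors were 0.14 to 0.65, and 1 was called.

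**Figure D4:**
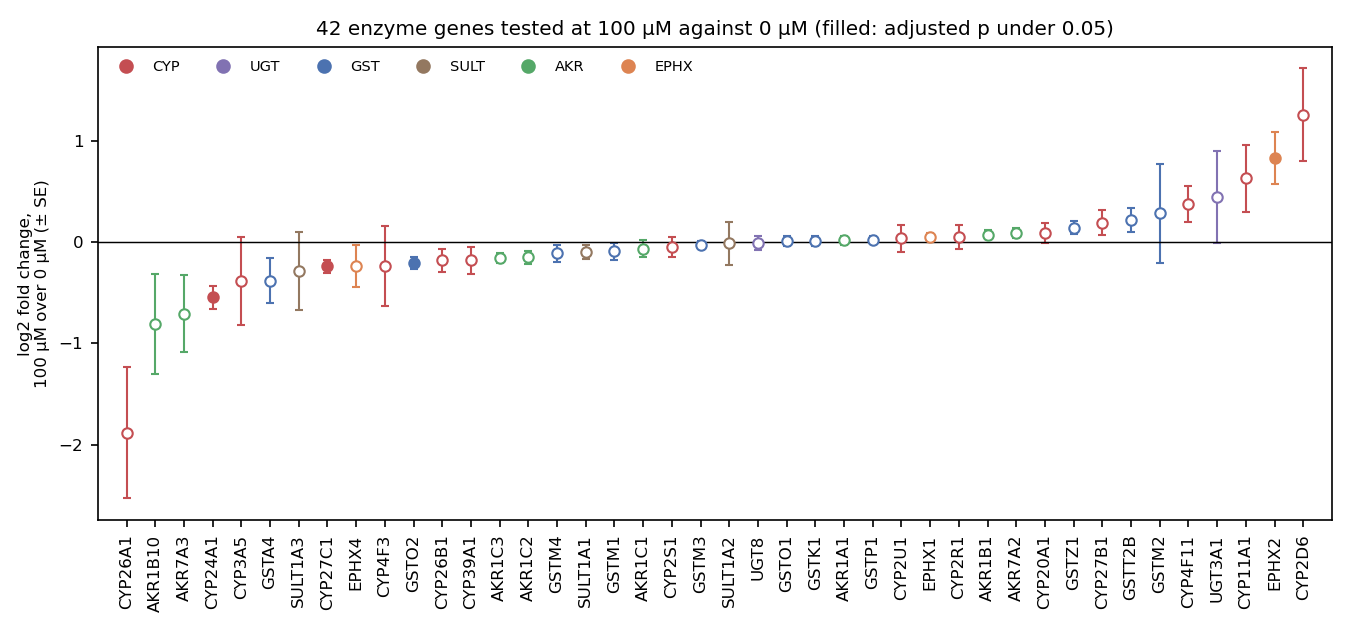
Log2 fold change of 100 µM over 0 µM (y axis, ± SE) for the 42 tested enzyme genes, ordered by value and coloured by family. Filled points passed the threshold: CYP24A1, CYP27C1 and GSTO2 below 0 and EPHX2 above 0. Error bars reach 0.65 for the genes with few reads at either end.

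Separation of the libraries gave a like picture. In 6 of 42 genes (14.3%) all 3 libraries at 100 µM lay above all 3 at 0 µM, against 13.1% of all genes tested. These were AKR7A2, CYP11A1, CYP27B1, EPHX2, GSTT2B and GSTZ1. In 5 (11.9%) they lay below, against 13.9% of all genes, namely AKR1B10, CYP24A1, CYP26A1, CYP27C1 and GSTO2. Below all 18 other libraries lay 2 genes (4.76%), CYP24A1 and CYP27C1, against 3.31% of all genes, and above all 18 lay 0, against 2.41%. The shares were close to those of all genes in each direction.

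Summed over a family, CPM at 100 µM and 0 µM overlapped in each of the 6 families. These sums use counts scaled by library total alone, without the TMM scaling of the gene values above. The glutathione S-transferases summed to 784 ± 8.89 CPM at 100 µM and 776 ± 13.96 CPM at 0 µM, the aldo-keto reductases to 834 ± 40.4 and 851 ± 43.3 CPM, and the cytochromes P450 to 66.2 ± 3.49 and 70.7 ± 2.71 CPM (SD, n = 3 each). These sums follow the most counted genes of each family.

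At the lower doses no enzyme gene was called. At 10 µM, edgeR called 0 of 42, against 0.321% of all genes tested (0.241% higher and 0.0803% lower). At an unadjusted p under 0.05 there were 11 of 42 at 10 µM (26.2%), against 1938 of 16196 genes (12%), a larger share that was not tested as such. DESeq2, which gave an adjusted p for 28 of the 42, and limma, which tested 27, also called 0. AKR7A3 had the smallest p, with 5, 14 and 6 reads at 10 µM, against 16, 26 and 22 reads at 0 µM (log2 fold change -1.37, SE 0.41, edgeR adjusted p = 0.151). GSTP1 had 480.3, 477 and 459 CPM at 10 µM, all above the 447, 422 and 444 CPM at 0 µM, but was not called (log2 fold change 0.11, SE 0.04, edgeR adjusted p = 0.254). At 1, 0.1, 0.01 and 0.001 µM, edgeR, DESeq2 and limma called 0 of the enzyme genes tested, and edgeR called 0% of all genes tested. At 1, 0.1, 0.01 and 0.001 µM, unadjusted p was under 0.05 in edgeR for 0, 4, 3 and 3 of the 42 enzyme genes (0%, 9.52%, 7.14% and 7.14%) and for 609, 987, 1415 and 1330 of 16196 genes (3.76%, 6.09%, 8.74% and 8.21%).

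Between 100 µM and 10 µM, 1 of 42 enzyme genes was called, CYP24A1, lower at 100 µM, against 4.53% of all genes tested (2.51% lower). At an unadjusted p under 0.05 there were 9 of 42 (21.4%), against 3049 of 16196 genes (18.8%). This comparison and that of 100 µM with 0 µM share the 100 µM libraries. Across the 7 groups, CYP24A1 was again the 1 gene called (edgeR adjusted p = 0.000131), against 4.65% of all genes. AKR1C3 came next (adjusted p = 0.0883).

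Over the 6 treated doses, a slope over log10 dose was called for 0 of 42 enzyme genes by edgeR, against 2.62% of all genes tested (1.22% higher and 1.41% lower). At an unadjusted p under 0.05 there were 9 of 42 (21.4%), against 2317 of 16196 genes (14.3%). DESeq2 called 2, CYP26B1 and CYP27C1, and limma called 1, CYP27C1. CYP26B1 had a slope of -0.06 log2 units per unit of log10 dose (SE 0.02, edgeR adjusted p = 0.053), CYP11A1 a slope of 0.20 (SE 0.06, adjusted p = 0.0607) and CYP27C1 a slope of -0.04 (SE 0.01, adjusted p = 0.063). CYP24A1 had a slope of -0.08 (SE 0.03, adjusted p = 0.298).

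Of 16 genes that supply the enzymes with electrons and cofactors, 15 had at least 1 FPKM. POR, the P450 oxidoreductase, averaged 10.7 FPKM, with 63.9 ± 1.5 CPM at 100 µM and 62.8 ± 4.95 CPM at 0 µM (SD, n = 3 each), whereas CYB5A, which encodes the microsomal cytochrome b5, had 3 reads in all. At 100 µM, 0 of the 15 tested rose and 2 fell (13.3% called), against 3.77% and 4.82% of all genes tested (8.58% called). UGP2, which makes UDP-glucose, had 97.5 ± 4.65 CPM at 100 µM and 114 ± 2.78 CPM at 0 µM (log2 fold change -0.23, SE 0.04, edgeR adjusted p = 0.000615). UGDH, which oxidises UDP-glucose to the UDP-glucuronic acid that glucuronidation uses, had 95.7 ± 0.334 CPM at 100 µM and 108 ± 1.97 CPM at 0 µM (log2 fold change -0.17, SE 0.04, edgeR adjusted p = 0.00277).

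Of 12 tested pumps and carriers that export or take up foreign compounds, 1 rose and 1 fell (16.7% called, against 8.58% of all genes tested). ABCG2, an exporter of drugs and sulfated conjugates, had 7.30 ± 0.488 CPM at 100 µM and 9.54 ± 0.810 CPM at 0 µM (log2 fold change -0.39, SE 0.09, edgeR adjusted p = 0.00512). ABCC10 rose by 0.19 on the log2 scale (SE 0.06, adjusted p = 0.0382). ABCB1, the multidrug pump, and ABCC2, the exporter of conjugates, gave -0.22 and -0.15 and were not called (edgeR adjusted p = 0.052 and 0.0573). Among 27 tested enzymes of other families, 0 rose and 2 fell (7.41% called, near the 8.58% of all genes tested), ALDH1B1, an aldehyde dehydrogenase gene, by 0.17 (edgeR adjusted p = 0.00947) and the quinone reductase gene NQO1 by 0.13 on the log2 scale (adjusted p = 0.0285). ALDH1A1, whose enzyme oxidises aldehydes in liver, had 11 reads in all.

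**Figure D5:**
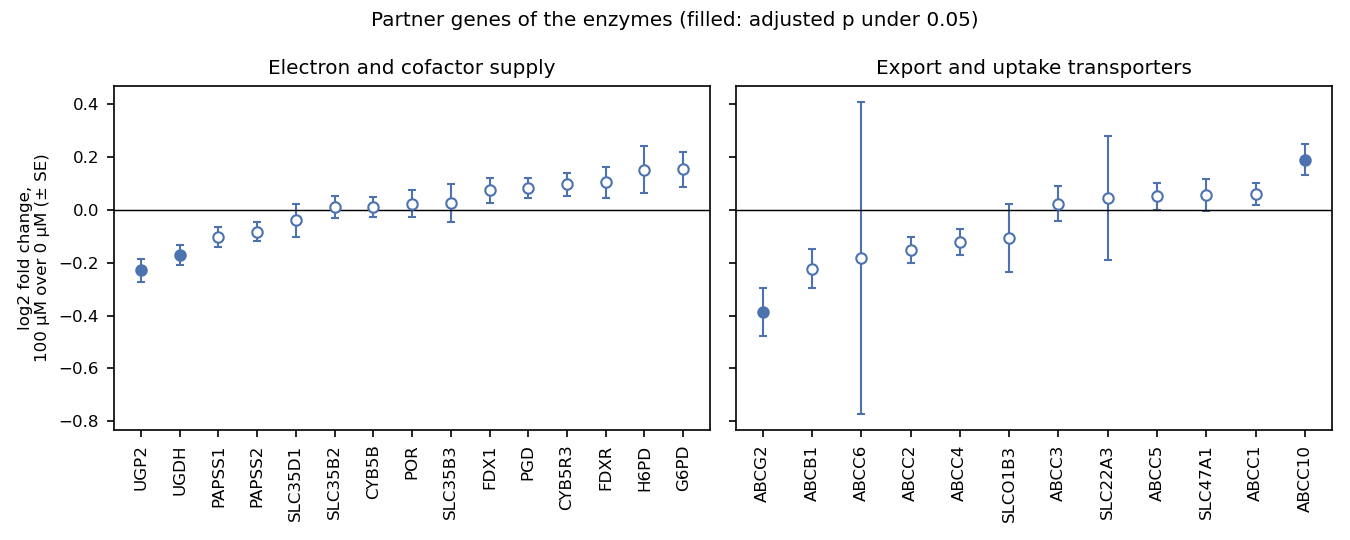
Log2 fold change of 100 µM over 0 µM (y axis, ± SE) for 15 tested genes of electron and cofactor supply (left) and 12 tested transporter genes (right). Filled points passed the threshold: UGP2, UGDH and ABCG2 below 0 and ABCC10 above 0.

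Regulators of the enzyme genes included silent and well transcribed ones. NR1I2, the receptor PXR that induces CYP3A4, had no read in any library, and HNF4A, the liver factor behind many P450 and UGT genes, had 9 reads in all. AHR, NFE2L2 (NRF2) and its inhibitor KEAP1 were transcribed, at 1.71, 21.1 and 33.9 FPKM on average, and none of these 3 was called at 100 µM. Of 14 tested regulators 1 rose and 1 fell (14.3% called, against 8.58% of all genes tested). In lists this small, 1 gene more or less moves the share by several points. CEBPB, a bZIP factor of liver and stress responses, had 63.2 ± 4.72 CPM at 100 µM and 38.9 ± 2.68 CPM at 0 µM (log2 fold change 0.70, SE 0.06, edgeR adjusted p = 1.21e-09). NR3C1, the glucocorticoid receptor, fell by 0.16 on the log2 scale (SE 0.05, adjusted p = 0.0227).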

How the data were processed

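Polyadenylated RNA of 21 samples was sequenced, per the labels' protocols. The deposited table holds whole-number counts per gene with no normalization, and the deposited FPKM of the authors equal those counts divided by gene length and a constant per library (largest relative deviation 3.95e-08). Per the submitters' processing notes, the tools were HISAT2 and DESeq2 and the build GRCh38, with no step assigned to them; for the counting tool and its use of strand, the entry is: not given in the sources used here. All 58735 gene IDs matched GENCODE 29, and 58690 had the same coordinates.

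Counts were tested with edgeR 4.0.16 (R 4.3.3): filterByExpr, TMM, 1 robust quasi-likelihood fit of 21 libraries, Benjamini-Hochberg over 16196 genes, threshold 0.05. The slope over log10 dose was fitted on the 18 treated libraries. Each SE given with an edgeR log2 fold change or slope was worked back from the test. It is the absolute value of the estimate divided by the square root of the F statistic. Alternatives were DESeq2 1.42.0 and its size factors, limma 3.58.1 on log2(FPKM + 1) and log2(FPKM + 0.1), other filters, the replicate number as a block, the 6 libraries compared alone, and each library left out; an ordinary in place of a robust spread and a slope contrast over 21 libraries were added after seeing the data.

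The enzyme genes and lists were chosen with earlier results of these data known. Named were all called enzyme genes, the 4 highest of each family by FPKM, those on the list of coumarin routes, the 6 largest fold changes at 100 µM, and up to 4 called genes of each other list; a few more fill out a family. Intervals and floors cover counting error only. Figures were drawn with matplotlib 3.10.9.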

Additional observations from a re-analysis of the deposited data

How the results depend on the processing

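CYP24A1 was called across the 7 groups in all 29 alternatives, and other calls depended on the processing. Across the 7 groups, 1 gene was called in the main analysis, 2 with DESeq2 and with the replicate block, and 4 with no filter. For 100 µM over 10 µM, 1 was called, against 2 with DESeq2 and with limma at either pseudocount, 3 with no filter and with the replicate block, and 4 with only the 6 libraries. For the slope, 0 were called, against 2 with DESeq2, 1 with limma at either pseudocount and with a minimum of 1 CPM in 3 libraries, and 4 as a contrast over 21 libraries. Leaving out 1 library gave 1 to 5 calls at 100 µM against 0 µM (1 without 100 µM replicate 1, 2 without 0 µM replicate 2), 1 to 3 for 100 µM over 10 µM (3 without 10 µM replicate 2, 2 without 100 µM replicate 3), 1 to 2 across the 7 groups (2 without 0.001 µM replicate 3 or 0.1 µM replicate 2) and 0 to 2 for the slope (2 without 10 µM replicate 2). A limit of 5 FPKM left 13 of the 26 genes. No direction reversed, and the cause of each change was not tested. The replicate numbers did not pair the libraries: same-numbered libraries deviated with correlations of -0.095 to 0.075 over 63 pairs, and 8 of 21 libraries correlated best with their own number. The block gave 6 calls at 100 µM against 0 µM, adding AKR1C2 and AKR1C3. Of the 122 genes, 96 were under 1 FPKM, and 80 of these had too few reads to be tested. Not all of the 96 had few reads: CYP2U1 had 2081 and CYP4F11 1924 in all.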
